A study of Mus musculus with 10 samples.

Results

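Dendritic cells are the professional antigen-presenting cells of the immune system, and in the thymus they display self-antigens to developing T cells. Plasmacytoid dendritic cells (pDC) sense nucleic acids and make interferon, whereas conventional dendritic cells are divided into a type 1 (cDC1), which takes up dead cells and cross-presents antigen, and a type 2 (cDC2), which presents antigen mainly to CD4 T cells. Both branches arise from progenitors that carry the cytokine receptor FLT3, and transcription factors such as IRF8, BATF3, SPIB and ZBTB46 set their identity. The 10 genes described here, out of 35375 features in the count table, comprise surface markers of these subsets (Siglech, Xcr1, Clec9a, Itgax and Sirpa), transcription factors (Irf8, Batf3, Spib and Zbtb46) and the receptor gene Flt3. They were found by symbol through their Ensembl identifiers, and all 10 were among the 19511 genes that passed the filter on low counts. Siglech was picked from these same data for its loss in homozygous knockout, so its levels there are a description and carry no test, and 9 members were tested in each contrast with homozygous knockout.

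The RNA came from whole thymus of C57BL/6J mice taken 3 days after birth. USP7 (also called HAUSP) is a deubiquitinating enzyme, and per the labels the knockout was made in the hematopoietic system and removed either 1 allele (heterozygous KO, n = 3) or both (homozygous KO, n = 3). The promoter that drives the recombinase was not given in the sources used here. The wild-type group (n = 4) consists, per the series, of 2 animals with cre and 2 without, with no statement of which is which. The count columns name wild type replicates 1 and 2 wt wt and replicates 3 and 4 wt het. Whether these words mark cre was not stated. Replicates 1 and 2 are also the 2 shallow libraries, so a part of cre and one of depth cannot be told apart between these pairs. A group labelled a knockout in blood cells still holds thymic epithelium and other stroma, and no cells were sorted. Usp7 itself followed the order of the labels. It was at 303, 422 and 408 CPM (read counts scaled to a common library size) in homozygous KO. Levels were 472, 516 and 516 CPM in heterozygous KO and 676, 670, 594 and 589 CPM in wild type. The 3 groups did not overlap. The group means were 59.7% (homozygous KO) and 79.2% (heterozygous KO) of that of wild type. How completely the alleles were lost in this tissue was not tested. The edgeR log2 fold change of Usp7 was -0.74 (SE 0.11, adjusted p = 0.000525) in homozygous KO against wild type. Against wild type, heterozygous KO gave -0.34 (SE 0.11, adjusted p = 0.608).

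The libraries held 39.8 to 122 M counts, the 2 shallowest being wild types. A level of 3 counts, below which a gene was treated as undetected in a library, corresponds to 0.0260 to 0.0737 CPM, and such limits cover counting error only. The animals fall into 2 runs of numbers, 44 to 51 and 56 to 63, that cross the groups, and the first run holds 3 wild types and 1 library of each knockout. Xist was over 100 CPM in 3 wild types, 1 homozygous KO and 0 heterozygous KO animals, so sex was not balanced between the groups. Thymocyte genes dominated every library, with 12 markers summing to 11902 to 12224 CPM in homozygous KO. These markers summed to 13299 to 14151 CPM in heterozygous KO and 13360 to 15115 CPM in wild type. The 10 dendritic cell genes together summed to 29.4 to 60.6 CPM in homozygous KO, 70.5 to 101 CPM in heterozygous KO and 88.0 to 104 CPM in wild type. Spib alone was 8.17 to 37.0 CPM of the homozygous KO sums. It was 17.9 to 35.7 CPM of those in heterozygous KO and 28.9 to 48.2 CPM of those in wild type. In whole-tissue RNA, fewer dendritic cells and less RNA of the 10 genes per cell cannot be told apart.

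In homozygous KO, 8 of the 9 tested members fell against wild type and 0 rose, at an adjusted p under 0.05 in edgeR's quasi-likelihood test. Over all genes tested, 13.2% fell and 12.5% rose by the same criterion. With library totals in place of TMM scaling, which shifted the median over all genes to -0.11 on the log2 scale, the share of rises among all calls was 29.0% and not 48.6%, and the same 8 members passed. The 8 were Flt3, Clec9a, Batf3, Itgax, Irf8, Xcr1, Zbtb46 and Sirpa, and their levels fell by 0.83 to 3.64 on the log2 scale. Spib was the member that did not pass. The libraries of homozygous KO lay wholly below those of wild type for 7 of the 9, against 16.4% of all genes. The median log2 fold change of the 9 was -1.58, and that of all genes was -0.01. In heterozygous KO, 0 of the 10 members differed from wild type.

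**Figure D1:**
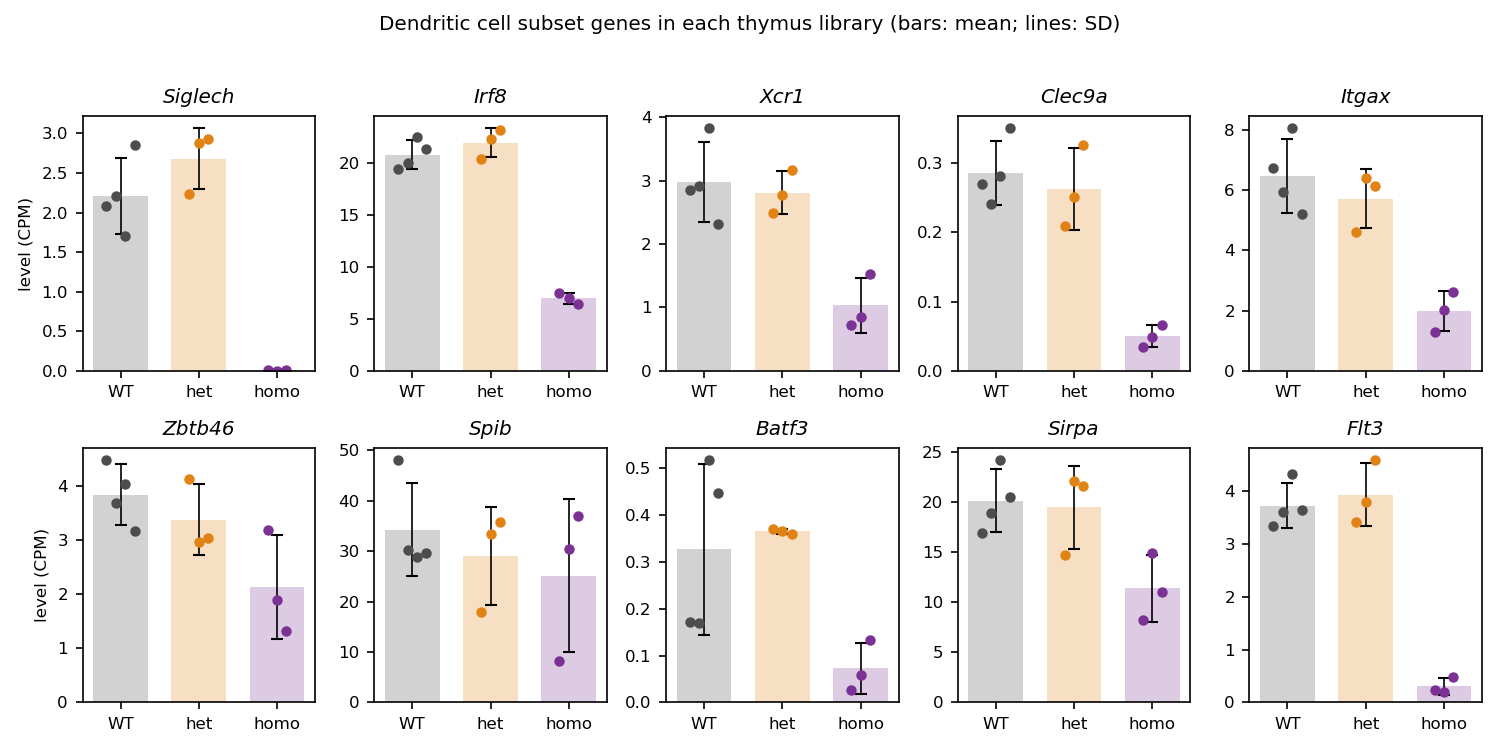
Levels of the 10 dendritic cell subset genes in CPM (vertical axes, each from 0) in wild type (WT, n = 4), heterozygous KO (het, n = 3) and homozygous KO (homo, n = 3) thymus; points are libraries, bars are means and lines are SDs. Siglech sits at the base of its panel in all 3 homozygous KO libraries, 7 other genes have every homozygous KO library under the lowest wild-type one, and the groups overlap for Zbtb46 and Spib.

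Siglech encodes a sialic acid-binding lectin that marks mouse plasmacytoid dendritic cells. Its level was 2.09, 2.21, 1.70 and 2.85 CPM in the wild-type libraries and 2.24, 2.88 and 2.93 CPM in heterozygous KO, where 85 to 275 reads supported each value. The counts in homozygous KO were 2, 0 and 1. Every homozygous KO library was therefore at or below the limit of 3 counts, and no library of the other groups came near it. Pooled over libraries, the level was 228-fold lower than in wild type (95% Clopper-Pearson interval 77.6 to 1108, 3 against 564 counts) and 274-fold lower than in heterozygous KO (93.4 to 1332, 3 against 768 counts), intervals that cover counting error only. The gene's exons overlapped no other annotated gene. In heterozygous KO against wild type, a contrast that did not enter its choice, Siglech had a log2 fold change of 0.28 (SE 0.26, 95% interval -0.29 to 0.84, adjusted p = 0.878), and the libraries overlapped.

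The promoter windows below are shown because Siglech and Flt3 had the lowest remaining shares of their wild-type level among the 10, Irf8 acts in both the plasmacytoid and the cDC1 branch, and Spib did not pass the test. Each is the 250 bases before a RefSeq start in GRCm38.p6, written 5′ to 3′ on the gene's strand, and capitals mark the E-box form CACCTG read on either strand. E-boxes are bound by E proteins such as TCF4, the factor that plasmacytoid dendritic cells depend on. Siglech lies at chr7:55767934-55768183 (plus strand), Flt3 at chr5:147400490-147400739 (minus strand), the second listed start of Irf8 at chr8:120738389-120738638 (plus strand) and Spib at chr7:44532072-44532321 (minus strand).
Siglech: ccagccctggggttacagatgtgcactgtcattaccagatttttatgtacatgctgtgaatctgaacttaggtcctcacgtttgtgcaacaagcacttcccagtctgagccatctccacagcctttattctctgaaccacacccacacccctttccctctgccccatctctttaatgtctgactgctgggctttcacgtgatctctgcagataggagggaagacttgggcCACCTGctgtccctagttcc
Flt3: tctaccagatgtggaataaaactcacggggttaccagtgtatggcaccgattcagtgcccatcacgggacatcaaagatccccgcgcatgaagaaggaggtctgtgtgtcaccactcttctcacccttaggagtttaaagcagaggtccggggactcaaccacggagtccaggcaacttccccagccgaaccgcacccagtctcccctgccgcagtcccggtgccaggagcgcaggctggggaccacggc
Irf8: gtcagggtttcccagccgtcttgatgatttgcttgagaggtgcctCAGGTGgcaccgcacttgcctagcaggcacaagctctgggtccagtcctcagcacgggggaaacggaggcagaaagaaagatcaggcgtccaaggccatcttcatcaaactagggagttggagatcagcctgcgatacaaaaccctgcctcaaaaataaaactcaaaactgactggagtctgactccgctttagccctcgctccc
Spib: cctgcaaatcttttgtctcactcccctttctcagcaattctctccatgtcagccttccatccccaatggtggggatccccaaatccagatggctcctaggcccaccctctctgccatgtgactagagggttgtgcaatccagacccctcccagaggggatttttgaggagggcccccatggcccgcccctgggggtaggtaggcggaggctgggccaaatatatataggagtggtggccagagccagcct

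A RefSeq promoter was found for 9 of the 10 members, the exception being Sirpa, and both strands of the bases before each start were searched. The general E-box CANNTG occurred in 8 of the 9, against 66.2% of 32841 mouse promoters. CACCTG, one of its forms, occurred in 3 of the 9 (Siglech, Irf8 and Zbtb46), against 17.2%. A member was counted if any of its windows matched, whereas the shares are of single promoters. Irf8 has 2 windows, and all its E-box matches lie in that of the second listed start, printed above. In Siglech the CACCTG match ends 15 bases before the start. The form CAGCTG occurred in 0 of the 9, against 13.0%. The ETS-IRF composite, GGAA and GAAA separated by any 2 bases, is the element through which IRF8 pairs with PU.1 or SPIB, and it occurred in 0 of the 9, against 2.30% of all promoters. The interferon response form, GAAA and GAAA separated by any 2 bases, occurred in 0 of the 9, against 2.98%. The AP-1 form TGANTCA, of the kind BATF proteins bind, occurred in 2 of the 9 (Itgax and Zbtb46), against 6.75%. Such matches are descriptions of the letters in these windows, and the data hold no binding measurement.

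Flt3, the receptor for the cytokine that drives dendritic cell development, is carried by early progenitors and kept by dendritic cells. It was at 3.34, 3.61, 4.32 and 3.64 CPM in wild type, at 3.42, 3.79 and 4.60 CPM in heterozygous KO and at 0.234, 0.196 and 0.477 CPM in homozygous KO. The highest homozygous KO library was far under the lowest of the other 7, and the group mean was 8.11% of that of wild type. The log2 fold change against wild type was -3.64 (SE 0.30, adjusted p = 1.18e-05), and against heterozygous KO it was -3.71 (SE 0.31, adjusted p = 2.02e-05). Of the 8 genes on a list of early progenitor markers that includes Flt3, 6 fell and 0 rose in homozygous KO against wild type. Without Flt3, 5 of 7 fell, against 13.2% of all genes tested. The summed level of the 8 was 32.1 to 37.3 CPM in homozygous KO and 70.1 to 122 CPM in wild type. The part of progenitors in the Flt3 result was not tested.

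Irf8 encodes the transcription factor shared by plasmacytoid and type 1 dendritic cells. It was at 19.4, 19.9, 22.4 and 21.3 CPM in wild type, 20.4, 22.3 and 23.1 CPM in heterozygous KO and 7.49, 6.96 and 6.44 CPM in homozygous KO. The spread within each group was narrow, with SDs of 6.37% to 7.54% of the mean. The level fell by 1.58 on the log2 scale against wild type (SE 0.09, adjusted p = 1.22e-06), which left 33.5% of the wild-type mean. Irf8 was also the member with the tightest bound on a heterozygous effect, with a log2 fold change of 0.08 (95% interval -0.11 to 0.26).

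Xcr1 and Clec9a mark type 1 conventional dendritic cells, the first as the receptor for the chemokine XCL1 and the second as a receptor for exposed actin of dead cells. Xcr1 was at 2.85, 2.91, 3.83 and 2.32 CPM in wild type, 2.49, 2.77 and 3.17 CPM in heterozygous KO and 0.729, 0.851 and 1.53 CPM in homozygous KO. Its highest homozygous KO library stayed under the lowest of the other 7, and the log2 fold change against wild type was -1.53 (SE 0.28, adjusted p = 0.00224). Clec9a was the weakest member per length of transcript, at 0.241 to 0.351 CPM in wild type (10 to 29 counts) and 0.210 to 0.327 CPM in heterozygous KO. In homozygous KO it had 4, 5 and 6 counts, and its log2 fold change against wild type was -2.51 (SE 0.40, adjusted p = 0.00103). Of its exon bases, 5.59% are shared with Clec1b on the same strand, so that part of its few counts is uncertain.

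Batf3 encodes the partner of IRF8 in type 1 dendritic cells. It was at 0.172, 0.168, 0.518 and 0.447 CPM in wild type, at 0.370, 0.366 and 0.359 CPM in heterozygous KO and at 0.0260, 0.0587 and 0.133 CPM in homozygous KO. The wild-type libraries split into a low and a high pair, the low pair being the shallow libraries, with 7 counts each. All the same, no homozygous KO library reached a wild-type one. The log2 fold change against wild type was -2.24 (SE 0.58, adjusted p = 0.0159). Without homozygous KO replicate 3 it was -2.97 (adjusted p = 0.0101). Without homozygous KO replicate 2 the call was lost (adjusted p = 0.0569), as it was when homozygous KO was compared with the 2 shallow wild types alone (log2 fold change -1.25, adjusted p = 0.21).

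Itgax (CD11c) and Zbtb46 are general genes of conventional dendritic cells, the first an integrin chain and the second a transcription factor that separates them from macrophages and monocytes. Itgax was at 6.73, 5.92, 8.06 and 5.20 CPM in wild type, 4.60, 6.42 and 6.14 CPM in heterozygous KO and 1.30, 2.01 and 2.63 CPM in homozygous KO. The groups did not overlap between homozygous KO and either other genotype, and the log2 fold change against wild type was -1.71 (SE 0.25, adjusted p = 0.000555). Zbtb46 was at 4.49, 3.68, 4.04 and 3.17 CPM in wild type, 4.14, 2.96 and 3.04 CPM in heterozygous KO and 3.19, 1.90 and 1.32 CPM in homozygous KO. Homozygous KO replicate 1 thus reached the wild-type range. The log2 fold change of Zbtb46 was -0.84 (SE 0.28, adjusted p = 0.0443), which is close to the threshold, and leaving out any of homozygous KO replicates 2 or 3, heterozygous KO replicates 2 or 3, or wild-type replicates 1, 2 or 3 raised the adjusted p to between 0.0601 and 0.141.

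Sirpa encodes the receptor of the CD47 signal that restrains phagocytosis and marks type 2 conventional dendritic cells, and macrophages carry it too. It was at 16.9, 19.0, 24.3 and 20.6 CPM in wild type, 14.7, 22.2 and 21.6 CPM in heterozygous KO and 8.25, 14.9 and 11.1 CPM in homozygous KO. Homozygous KO lay below wild type but overlapped heterozygous KO, whose first library was at 14.7 CPM. The log2 fold change against wild type was -0.83 (SE 0.21, adjusted p = 0.0135). Against the 2 shallow wild types alone it was -0.65 (adjusted p = 0.0961).

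Spib encodes an ETS factor of plasmacytoid dendritic cells that B cells and medullary thymic epithelium also use. It was at 48.2, 30.3, 28.9 and 29.7 CPM in wild type, 17.9, 33.4 and 35.7 CPM in heterozygous KO and 8.17, 30.4 and 37.0 CPM in homozygous KO. The low values were homozygous KO replicate 1 and heterozygous KO replicate 1, and the other knockout libraries lay within the wild-type range. The log2 fold change in homozygous KO was -0.44 with a 95% interval from -1.37 to 0.48 (adjusted p = 0.477), an interval that holds both no change and a fall as large as that of Zbtb46. Within the animals numbered 44 to 51 the difference from wild type was -2.09 on the log2 scale (1 against 3 libraries), and within those numbered 56 to 63 it was 0.17 (2 against 1 libraries). The other 8 tested members were lower in homozygous KO than in wild type within both runs of numbers. The summed thymic epithelial markers were 93.2 and 92.5 CPM in the libraries with the low Spib values and 95.3 to 202 CPM in the other 8. The sum of 95.3 CPM was that of wild type replicate 1, which had the highest Spib value (48.2 CPM). Homozygous KO replicate 2 had a sum of 98.3 CPM with Spib at 30.4 CPM. The part of thymic epithelium in the Spib result was not tested.

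**Figure D2:**
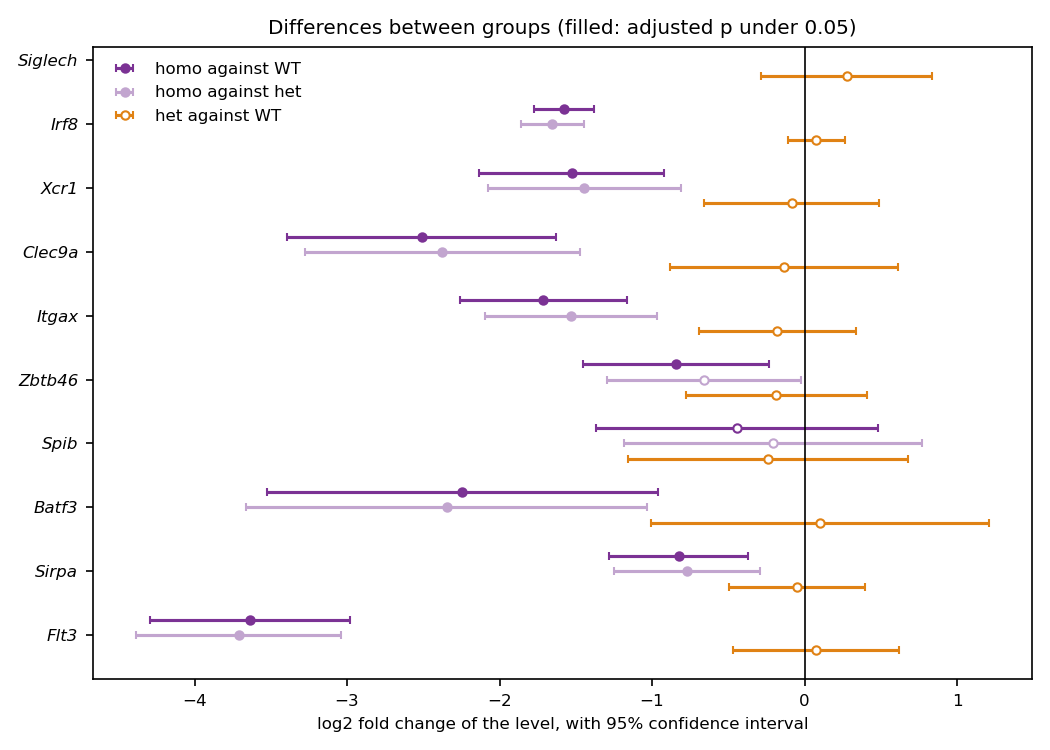
Log2 fold change of each member (horizontal axis) with its 95% confidence interval for homozygous KO against wild type, homozygous KO against heterozygous KO and heterozygous KO against wild type; filled points passed an adjusted p under 0.05, and Siglech is drawn only for the contrast in which it was tested. In homozygous KO against wild type the points run from -3.64 for Flt3 to -0.44 for Spib, while every interval of heterozygous KO against wild type spans 0.

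The heterozygous comparison asks whether loss of 1 allele moved these genes. None of the 10 members passed the adjusted threshold, none had an unadjusted p under 0.05 in edgeR, and DESeq2 called 0 as well. Over all genes, 0.0154% passed in this comparison (3 genes), so a count of 0 of 10 equals the background. The log2 fold changes ran from -0.24 for Spib to 0.28 for Siglech, with 6 negative and 4 positive. The intervals allowed between a 0.448-fold and a 2.32-fold level over the 10 members, the widest being that of Batf3. Equality is not shown by this.

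Between the 2 knockouts, 7 of the 9 tested members were lower in homozygous KO and 0 higher, against 9.5% lower and 7.63% higher over all genes. The libraries of 6 of the 9 did not overlap, against 16.8% of all genes. The 7 were Flt3, Clec9a, Batf3, Irf8, Itgax, Xcr1 and Sirpa. Irf8 had a log2 fold change of -1.65 (SE 0.09, adjusted p = 2.03e-06), Clec9a one of -2.38 (SE 0.41, adjusted p = 0.00233) and Sirpa one of -0.77 (SE 0.22, adjusted p = 0.0319). Zbtb46 had a log2 fold change of -0.66 (SE 0.29, adjusted p = 0.158) and Spib one of -0.21 (SE 0.44, adjusted p = 0.817). Leaving out homozygous KO replicate 1 or 2 or heterozygous KO replicate 2 or 3 ended the Batf3 call (adjusted p = 0.0508 to 0.0668), and leaving out homozygous KO replicate 1 or 3 or heterozygous KO replicate 2 or 3 ended the Sirpa call (adjusted p = 0.0799 to 0.109). Without homozygous KO replicate 1, Zbtb46 passed (adjusted p = 0.0125). The homozygous libraries are shared between this comparison and the one with wild type, so they are not separate evidence. By exact two-sided permutation of single members the smallest possible p is 0.0286 for 3 against 4 libraries, which the 7 members without overlap reached, and 0.1 for 3 against 3.

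Levels can be set side by side between genes only per length of transcript. In wild type, in CPM per kilobase of exon, Spib was highest at 12.0 ± 3.23 (SD, n = 4), followed by Sirpa at 4.11 ± 0.633, Irf8 at 2.94 ± 0.196 and Itgax at 1.35 ± 0.255. Xcr1 at 0.669 ± 0.140, Siglech at 0.654 ± 0.142 and Flt3 at 0.604 ± 0.0677 CPM per kilobase lay within their spread of each other. Zbtb46 at 0.452 ± 0.0659, Batf3 at 0.204 ± 0.114 and Clec9a at 0.0868 ± 0.0141 CPM per kilobase were lowest, and the libraries of Batf3 and Clec9a overlapped on this scale. The order was nearly that of heterozygous KO, whereas in homozygous KO Siglech moved from the sixth to the last place. With the length of the longest transcript instead of all exon bases, Irf8 at 5.98 CPM per kilobase came before Sirpa at 5.07. Xcr1 at 0.669 then moved from place 5 to place 8 in wild type. It lay below Siglech at 0.962, Flt3 at 0.943 and Zbtb46 at 0.724 CPM per kilobase.

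**Figure D3:**
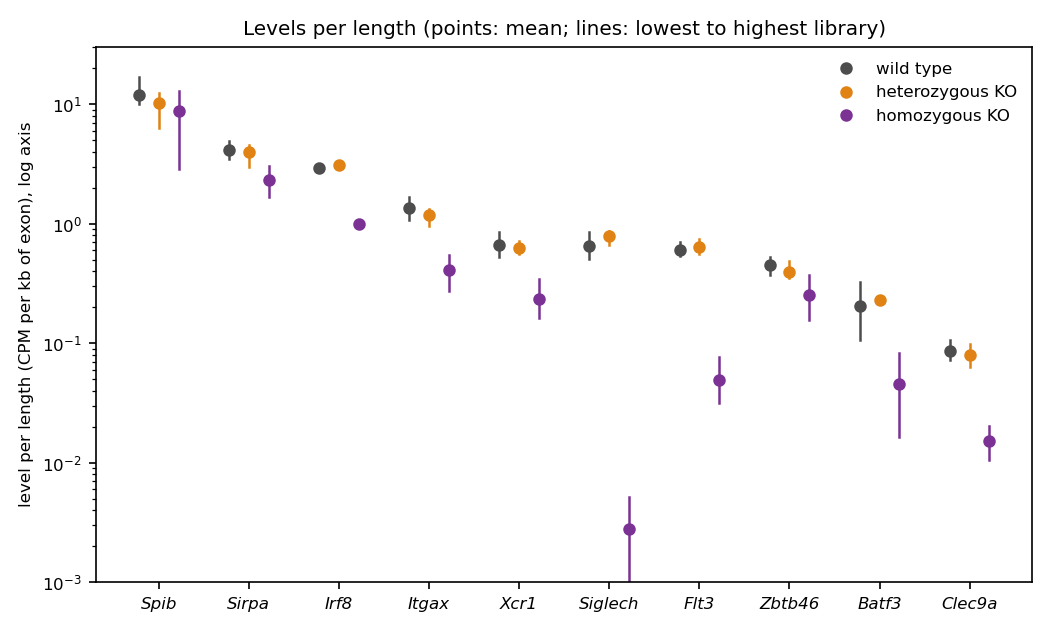
Level per length of transcript in CPM per kilobase of exon (vertical log axis) for each member, ordered by wild type; points are group means and lines run from the lowest to the highest library, cut at the foot of the axis for Siglech in homozygous KO, where 1 library has 0 counts. Spib keeps the top place in all 3 groups, and in homozygous KO Siglech falls to 0.0028 and Flt3 to 0.0489 CPM per kilobase.

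Marker lists written from general knowledge were counted as well, and they hold members beside further genes of each dendritic cell subset. On the plasmacytoid list, 12 of 19 tested genes fell and 1 rose in homozygous KO against wild type (Siglech not counted), with a median log2 fold change of -1.11, or -1.02 with Cd300c, which had 3 counts or fewer in each homozygous KO library, set at that floor. Without the members Irf8 and Spib, 11 of 17 fell. Ly6d, a surface protein of lymphoid and plasmacytoid precursors, was at 2.87 to 5.61 CPM in homozygous KO and 38.5 to 69.4 CPM in wild type (log2 fold change -3.91, SE 0.35, adjusted p = 2.19e-05). Tlr9, the sensor of unmethylated DNA, had a log2 fold change of -3.34 (SE 0.21, adjusted p = 2.55e-06). Pacsin1 had one of -3.24 (SE 0.31, adjusted p = 2.98e-05), or -3.84 without homozygous KO replicate 1, and Bcl11a, a transcription factor needed for plasmacytoid and B lineage cells, one of -3.16 (SE 0.23, adjusted p = 5.36e-06). The list did not move as one. Chosen after their values were seen, Bst2, an interferon-inducible surface protein, rose from 14.3 to 17.7 CPM in wild type to 26.4 to 29.4 CPM (log2 fold change 0.83, SE 0.09, adjusted p = 7.29e-05), and Tcf4 stayed at 46.9 to 57.7 CPM against 47.2 to 55.5 CPM (log2 fold change 0.04, SE 0.08, adjusted p = 0.747). Ccr9, a homing receptor that most thymocytes also carry, was at 506 to 579 CPM against 593 to 690 CPM (log2 fold change -0.20, adjusted p = 0.0917).

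On the type 1 list, 8 of 15 tested genes fell and 0 rose, with a median of -1.26, and 4 of the 8 are members. Ifi205 was at 0.260 to 0.432 CPM in homozygous KO against 2.21 to 2.76 CPM in wild type (log2 fold change -2.78, SE 0.23, adjusted p = 1.26e-05). Wdfy4, which type 1 dendritic cells need for cross-presentation, was at 9.18 to 11.3 CPM against 58.4 to 77.1 CPM (log2 fold change -2.73, SE 0.11, adjusted p = 1.23e-07). The remaining 7 tested genes of this list were not called. Named after its values were seen, Nfil3 was at 6.91 to 16.1 CPM in homozygous KO against 4.38 to 10.9 CPM in wild type. Ppt1, named likewise, was at 97.9 to 146 CPM against 132 to 144 CPM. On the type 2 list, 7 of 12 fell and 1 rose, with a median of -0.98. Without the member Sirpa, 6 of 11 fell. Cd209a, a lectin of type 2 dendritic cells, had 1 count over the 3 homozygous KO libraries against 47 over the wild types, which is 57-fold lower (95% Clopper-Pearson interval 9.74 to 2297, counting error only). The lectin genes Clec10a and Mgl2 had log2 fold changes of -3.32 (SE 0.62, adjusted p = 0.00257) and -2.09 (SE 0.54, adjusted p = 0.0154). Irf4, the factor that parallels IRF8 in type 2 cells and acts in lymphocytes too, had one of -1.38 (SE 0.18, adjusted p = 0.000326). Cd7, which T cells also carry, was the gene of this list that rose (log2 fold change 0.73, adjusted p = 0.018), named after its value was seen, and the call was lost without homozygous KO replicate 1 or 2 or wild type replicate 2 (adjusted p = 0.0506 to 0.0707).

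Genes of activated dendritic cells, the migratory state that carries antigen within the thymus, had the same kind of count. On that list, which holds no member, 12 of 15 tested genes fell and 2 rose, with a median of -1.61. Ccl22, a chemokine that attracts CCR4-bearing T cells, was at 0.743 to 1.60 CPM in homozygous KO against 15.6 to 27.7 CPM in wild type (log2 fold change -4.28, SE 0.28, adjusted p = 3.32e-06). Fscn1, an actin-bundling protein of mature dendritic cells, had a log2 fold change of -2.67 (SE 0.18, adjusted p = 3.45e-06). Ccr7, which mature thymocytes carry as well, was at 1.14 to 13.0 CPM against 33.7 to 56.7 CPM (log2 fold change -2.96, SE 0.71, adjusted p = 0.0109). Its homozygous KO values were 13.0, 1.35 and 1.14 CPM, and without replicate 1 the log2 fold change was -5.02 (SE 0.27, adjusted p = 1.33e-06). Il12b, a subunit of interleukins that dendritic cells secrete, had 3, 0 and 1 counts in homozygous KO against 22 to 130 in wild type and was 86.1-fold lower over the pooled counts (95% Clopper-Pearson interval 33.2 to 318, counting error only). Cd80 and Socs2, named after their values were seen, were the 2 that rose, with log2 fold changes of 0.64 (adjusted p = 0.0397) and 1.41 (adjusted p = 0.0126). The Cd80 call was lost without homozygous KO replicate 1 or 3, heterozygous KO replicate 2 or 3, or wild type replicate 2, 3 or 4 (adjusted p = 0.0521 to 0.111), and the Socs2 call without homozygous KO replicate 2 (adjusted p = 0.0599).

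Of the 21 tested regulators of dendritic cell fate, 11 fell and 0 rose in homozygous KO against wild type, with a median of -0.65. Some of these regulators were already counted on the lists above. Among the regulators that are no members, 7 of 16 fell. Besides the members Flt3, Batf3 and Irf8, Zeb2, a repressor that promotes plasmacytoid over type 1 fate, was at 1.94 to 2.94 CPM against 9.09 to 11.8 CPM in wild type (log2 fold change -2.10, SE 0.16, adjusted p = 7.78e-06). Among the ligands and signalling partners of the members, 2 of 8 tested genes fell and 2 rose, with a median of 0.04. Xcl1, the ligand of XCR1, rose by 1.10 on the log2 scale (SE 0.23, adjusted p = 0.00505), from 1.28 to 2.23 CPM in wild type to 3.31 to 4.06 CPM, while its receptor gene Xcr1 fell. Itgb2, the integrin chain that pairs with the Itgax product, had a log2 fold change of -0.41 (SE 0.09, adjusted p = 0.00684). Ptpn11, a phosphatase recruited by SIRPA, had one of 0.28 (SE 0.05, adjusted p = 0.00184), and Syk, the kinase downstream of CLEC9A, one of -0.19 (SE 0.06, adjusted p = 0.0465). The Syk call was lost without homozygous KO replicate 1 or 3, heterozygous KO replicate 2 or 3, or any of the 4 wild types (adjusted p = 0.0538 to 0.136).

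The other partners did not pass. Cd47, the ligand of SIRPA, was at 270 to 298 CPM in homozygous KO and 232 to 348 CPM in wild type (log2 fold change -0.05, SE 0.16, adjusted p = 0.856). Tyrobp, the adaptor through which Siglec-H signals, was at 3.82 to 9.23 CPM against 4.67 to 6.48 CPM (log2 fold change 0.13, SE 0.25, adjusted p = 0.749). The adaptor Hcst and the phosphatase Ptpn6 had adjusted p-values of 0.197 and 0.19, and without wild type replicate 4 Ptpn6 passed (adjusted p = 0.0482). Csf2, which encodes the cytokine GM-CSF, had 1 to 2 counts in each homozygous KO library and 1 to 5 in each wild type and could not be tested. Flt3l, Runx2 and Ciita were not analysed here.

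All 10 tested genes of class II antigen presentation fell in homozygous KO against wild type, with a median of -1.45. H2-Ob, an inhibitory chain of the peptide-loading machinery used by B cells and dendritic cells, had a log2 fold change of -4.50 (SE 0.30, adjusted p = 3.44e-06). Ctss, the protease that frees class II molecules from their chaperone, had one of -1.78 (SE 0.11, adjusted p = 1.59e-06). H2-DMb1, a chain of the peptide exchanger, had one of -1.58 (SE 0.31, adjusted p = 0.00336), and H2-Eb1, a class II chain, one of -1.52 (SE 0.26, adjusted p = 0.00167). Thymic epithelium and B cells use class II genes as well. In heterozygous KO against wild type, 0 genes were called on each of the lists in this and the preceding paragraphs.

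**Figure D4:**
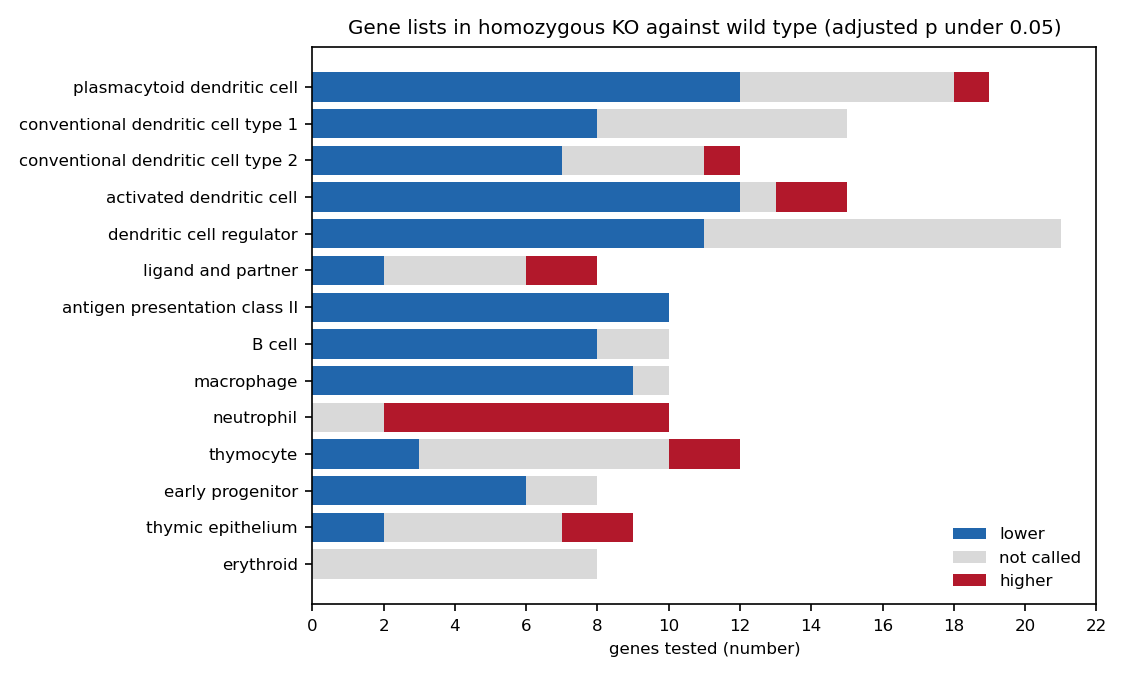
Number of tested genes on each marker list (horizontal axis) that were lower, not called or higher in homozygous KO against wild type at an adjusted p under 0.05; Siglech is not counted. All 10 class II genes, 12 of 15 activated dendritic cell genes and 12 of 19 plasmacytoid genes are in the lower class, as are 8 of 10 B cell and 9 of 10 macrophage genes, while 8 of 10 neutrophil genes are in the higher class.

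Markers of some other cell types moved with the same contrast. On the B cell list, 8 of 10 genes fell and 0 rose in homozygous KO against wild type, with a median of -3.19. The summed level of this list was 14.1 to 16.0 CPM in homozygous KO against 43.0 to 64.9 CPM in wild type and 38.1 to 39.6 CPM in heterozygous KO. Ms4a1 (CD20) and Fcrla, the genes of the list with the lowest shares of their wild-type level, had at most 1 and 2 counts in any homozygous KO library. Over the 10 genes, the homozygous KO mean ran from 0.138% (Ms4a1) to 61.7% (Blk) of that of wild type. On the macrophage list 9 of 10 fell, with a summed level of 24.6 to 27.8 CPM against 55.3 to 77.8 CPM, and Vsig4 was at 3 counts or fewer in every library. On the neutrophil list 8 of 10 rose, with a summed level of 56.9 to 318 CPM against 8.10 to 24.6 CPM. Thymocyte genes had 3 of 12 lower and 2 higher, thymic epithelial genes 2 of 9 lower and 2 higher, and erythroid genes 0 of 8 in either direction. Over all genes tested, 13.2% were lower and 12.5% higher. B cells use Irf8, Spib, Bcl11a, Tlr9 and Ly6d, and macrophages use Sirpa, Itgax and Irf8. The part of these cells in the results for those genes was not tested.

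The genes whose profile over the 10 libraries was most like that of Siglech were ranked by the root mean square difference of log2 CPM after each profile was centred, among 12379 genes. The closest was Fcrla, a B cell protein related to Fc receptors, at 0.42. Phyhipl followed at 0.89, Map10 at 0.92, Apol7c at 0.93, the B cell gene Ms4a1 at 0.94 and Il12b at 0.94. Fcrla had the same 2, 0 and 1 counts as Siglech in the homozygous KO libraries and was at 1.10 to 2.17 CPM in wild type and 1.33 to 1.51 CPM in heterozygous KO. Apol7c was at 0.0222 to 0.0955 CPM in homozygous KO, 2.48 to 3.00 CPM in heterozygous KO and 1.92 to 3.93 CPM in wild type. This ranking uses the values that singled out Siglech and is a description of likeness, with no test. With a larger prior count added before the log, 3 of the 6 were retained.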

How the data were processed

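RNA was extracted from whole thymus with a column kit, ribosomal RNA was removed, and stranded libraries were sequenced on an Illumina NovaSeq instrument. The authors deposited unnormalized counts of reads for each gene in a table that covers all animals. The submitters' processing notes name CASAVA, STAR 2.4.1d, HTSeq 0.6.1p1 and the builds mm9 and NCBIM37, and the annotation release and strand setting were not given in the sources used here. Columns were matched to samples by the animal number in the title, and the title's group was kept for 2 wild types whose column name adds the word het. Features without an Ensembl identifier held 1.74% to 2.29% of the counts. Symbols and exon lengths came from a GRCm38 annotation, which matched 30204 features and may differ from that used for counting, and promoters from the RefSeq table of GRCm38.p6, searched only before each start.

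From the counts, edgeR 4.0.16 (R 4.3.3) was used with TMM scaling, filterByExpr and the quasi-likelihood test, in 1 fit of the group means over all 10 libraries, and p-values were adjusted by Benjamini-Hochberg over 19511 genes at a threshold of 0.05. The SE is the absolute log2 fold change divided by the square root of F. The biological coefficient of variation was 0.207. The scripts were tested on simulated data. No 2 libraries of a group agreed within sampling noise (chi-square per degree of freedom 13.5 to 116 over 12 pairs). Total counts per library were 39.8 to 122 M, so low genes are less precise in the shallow wild types. Nothing in the labels states litters or separate extractions, and p-values measure the spread between these animals. The members, lists and tests were chosen with earlier results of these data known. Named genes were every member, Usp7, every ligand and partner gene, the 6 genes closest to Siglech, and from each dendritic cell, regulator, partner and class II list up to 4 genes with the largest absolute log2 fold change among those called in homozygous KO against wild type without overlap. Alternatives were library totals alone, DESeq2 1.42.0, no filter on low counts, blocks by replicate or animal number, Xist as a covariate, subsets of wild types, 2-group fits and leaving out each library. Leaving out each library for the named genes that are no members was added after seeing the data.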

Additional observations from a re-analysis of the deposited data

Results flagged for a closer look

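In 44 genes the extreme library of the wild-type group was compared with the spread of its group, and 3 stood apart from the other 3 libraries by Dixon's criterion, which flags about 1 in 20 groups by chance. Spib was at 48.2 CPM in wild type replicate 1. Ccr7 was at 56.7 CPM in wild type replicate 3. Ms4a1 was at 8.04 CPM in wild type replicate 2.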

How the results depend on the processing

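The count of members called in homozygous KO against wild type was 8 of 9 with library totals alone, DESeq2, no filter on low counts, the replicate block, the animal-number block and Xist as a covariate, 6 to 8 when 1 library was left out, and 5 with the wild types whose title has 2 wt words, which are the 2 shallow libraries (Zbtb46, Batf3 and Sirpa lost). Zbtb46 was also lost with the other 2 wild types (adjusted p = 0.204) and in a fit of the 2 groups alone (adjusted p = 0.0718). In homozygous KO against heterozygous KO the count was 5 to 7 of 9 when 1 library was left out, and the animal-number block added Zbtb46 (adjusted p = 0.0244). For heterozygous KO against wild type, 0 of 10 members were called in all alternatives run. The log2 fold changes of that comparison changed sign as follows: with Xist as a covariate Xcr1 0.24, Clec9a 0.082 and Sirpa 0.068, with the 2-word wild types Clec9a 0.039 and Sirpa 0.12, with the 1-word wild types Batf3 -0.40 and Flt3 -0.016, and with the animal-number block Zbtb46 0.050, Batf3 -0.083 and Flt3 -0.020. With 1 library left out they spanned -0.19 to 0.065 for Xcr1, -0.32 to 0.010 for Clec9a, -0.41 to 0.023 for Spib, -0.093 to 0.41 for Batf3, -0.15 to 0.12 for Sirpa and -0.050 to 0.17 for Flt3. Spib in homozygous KO against heterozygous KO spanned -0.60 to 0.20. The causes were not tested. Deviations of libraries with the same replicate number had correlations of -0.09 to 0.20 over 9 pairs, against -0.17 to 0.19 over 18 pairs with other numbers. These ranges overlap, so no pairing by number was seen, but so few pairs cannot exclude one. The replicate block gave 8, 0 and 7 members called in the 3 comparisons and 4934, 5 and 3293 genes. Genes called over all alternatives ranged from 2670 to 5820 in homozygous KO against wild type, 2 to 71 in heterozygous KO against wild type (71 with DESeq2, 6 without wild type replicate 4) and 2153 to 4238 in homozygous KO against heterozygous KO. With library totals alone the median of all genes in homozygous KO against wild type moved from -0.01 to -0.11 on the log2 scale, and 29.0% of calls were higher, against 48.6%. Of the 6 genes closest to Siglech, 3 were kept with a prior count of 2.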
